A study of Mus musculus with 6 samples.

Results

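Wnt4 and Rspo1 are the secreted signals that open the canonical WNT pathway in the somatic cells of the developing ovary. They are described here together with 8 further genes of the same route: Ctnnb1, the intracellular mediator, Lgr5, a receptor for R-spondins, Znrf3 and Rnf43, a pair of ubiquitin ligases, Axin2 and Lef1, a feedback target and a DNA-binding partner, Fst, an ovarian gene that depends on the pathway, and Wnt5a, a ligand of non-canonical WNT signalling. The 10 genes were chosen by symbol and matched through their Ensembl identifiers, which gave 10 of the 48709 genes in the count table, and all 10 passed the filter on low counts that kept 20167 genes.

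Polyadenylated RNA of wild-type CD1 mouse ovaries at 13.5 days post coitum (dpc) was sequenced in 6 libraries, 1 for each pool of embryonic gonads from 2 dams. Dams of the 3 APAP + IBU libraries received acetaminophen (APAP, 30 mg/kg per day) and ibuprofen (IBU, 15 mg/kg per day) in alternation every 3 h, in 4 gavages per day between 10.5 and 13.5 dpc. Dams of the 3 control libraries received the ethanol vehicle on the same schedule. Titles of the exposed samples name ibuprofen only, whereas their exposure label names both drugs, and they were treated as APAP + IBU-exposed. Pools of whole ovaries mix germ cells and several somatic cell types, so fewer cells of a type and less RNA per cell cannot be told apart.

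In the absence of a WNT ligand, a cytoplasmic complex that holds AXIN and APC marks β-catenin, the product of Ctnnb1, for destruction. A WNT ligand bound to a Frizzled receptor and its LRP co-receptor stalls that complex, and the β-catenin that accumulates enters the nucleus and works with TCF/LEF factors. ZNRF3 and RNF43 remove Frizzled from the cell surface, and R-spondins such as RSPO1 bind LGR receptors and take these ligases away, which raises the response to WNT. In the fetal mouse ovary, RSPO1, WNT4 and β-catenin keep supporting cells on the ovarian path, oppose the testis programme and act on germ cell proliferation and entry into meiosis.

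The bases just upstream of Wnt4, Rspo1 and Axin2 are shown. Wnt4 and Rspo1 are the signals of the pathway, and Axin2 is a direct target of TCF/LEF factors. These windows share a high content of G and C. They were taken from the RefSeq promoter table for GRCm38.p6, all on the plus strand, and run 5′ to 3′ up to the base before the annotated start of the gene, with every CG dinucleotide in capitals. The Wnt4 window is chr4:137277385-137277488, shortened because the table's start lies inside the annotated gene. For Rspo1 the window is chr4:124986180-124986429, and for Axin2 it is chr11:108920099-108920348.
Wnt4: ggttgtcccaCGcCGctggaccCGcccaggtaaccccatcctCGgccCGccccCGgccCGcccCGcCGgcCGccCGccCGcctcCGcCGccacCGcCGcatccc
Rspo1: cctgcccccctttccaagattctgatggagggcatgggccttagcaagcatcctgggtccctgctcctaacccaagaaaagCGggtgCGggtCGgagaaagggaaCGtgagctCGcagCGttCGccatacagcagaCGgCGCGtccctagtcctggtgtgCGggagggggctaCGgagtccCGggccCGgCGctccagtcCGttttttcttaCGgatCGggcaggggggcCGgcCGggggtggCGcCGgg
Axin2: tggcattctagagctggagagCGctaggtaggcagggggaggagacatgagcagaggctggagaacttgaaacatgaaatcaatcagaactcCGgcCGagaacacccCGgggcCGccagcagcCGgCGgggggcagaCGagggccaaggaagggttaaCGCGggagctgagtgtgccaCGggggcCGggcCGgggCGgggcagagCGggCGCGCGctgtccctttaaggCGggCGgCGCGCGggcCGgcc

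The windows hold 16 CG dinucleotides in 104 bases for Wnt4, 22 in 250 bases for Rspo1 and 24 in 250 bases for Axin2. Their G and C content was 83.7%, 66.8% and 69.2%, against a median of 52.4% over the 32851 promoters in the table. The window of Lef1, not shown, had 66.4%. The TCF/LEF motif, searched as CTTTGAA or CTTTGAT on both strands, was not found in these windows, and 7.5% of all promoters of 250 bases held it. That says only that these letters are not in these windows. Of the 10 genes, 6 had an entry in the promoter table. Lgr5, Znrf3, Fst and Wnt5a had none.

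Per length of annotated exons, Ctnnb1 was by far the most abundant of the 10 genes, at 218 ± 10.7 RPKM (counts per kilobase of exon, scaled to library size, SD, n = 6). Its lowest library lay above the highest library of every other gene. The ligands came next, with Wnt4 at 38.3 ± 8.90 RPKM and Rspo1 at 36.0 ± 6.65 RPKM, and their ranges over the 6 libraries overlapped. Fst, which encodes the activin antagonist follistatin, had 27.3 ± 3.32 RPKM and overlapped with Rspo1.

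The feedback target Axin2 (17.6 ± 1.99 RPKM) and the ligand Wnt5a (15.3 ± 1.31 RPKM) formed the next pair, with overlapping ranges that were separate from those of Fst above and Lgr5 below. Lgr5 had 9.10 ± 2.40 RPKM, Znrf3 6.31 ± 1.42 RPKM and Lef1 5.77 ± 0.740 RPKM, and neighbours in this order overlapped. Rnf43 was the least abundant at 3.01 ± 0.302 RPKM, below every library of Lef1. Both ligases were thus at lower levels per length than the ligand Rspo1, and every gene was counted deeply, from 740 reads of Rnf43 in its lowest library to 56708 reads of Ctnnb1 in its highest. Intervals from counting alone are therefore narrow, and the spread between libraries sets the precision.

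The labelled tissue was checked against marker genes. Markers of gonadal somatic cells of both sexes summed to 1429 to 1527 CPM (counts scaled to library size with TMM normalisation) in control and 1366 to 1568 CPM in exposed libraries, and those of germ cells to 1530 to 1725 CPM and 1487 to 1963 CPM. Ovarian supporting cell markers, a list of 10 genes of which Wnt4, Rspo1, Fst and Lgr5 are themselves part, summed to 959 to 1047 CPM in control and 1032 to 1296 CPM in exposed libraries. Foxl2, a defining gene of these cells, was low and uneven, at 8.16, 2.38 and 0.944 CPM in control and 2.21, 4.37 and 5.21 CPM in exposed libraries. Sertoli and fetal Leydig cell markers, at 45.4 to 88.9 CPM and 43.5 to 52.0 CPM, were far below them.

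Some marker lists stood apart between libraries. Total counts ran from 37811968 to 48954631. The 20 liver markers summed to 2364 and 3776 CPM in replicate 3 of the control and the exposed group, and to 206 to 585 CPM in the other 4 libraries, where none of the 20 was at 0. The 12 spermatid markers were all lower in exposed ovaries by log2 fold change, with a median of -3.71. Their sums were 168 to 286 CPM in control and 119 to 142 CPM in exposed libraries. Odf2 had the most reads of them in every library, at 4926, 4385 and 5885 in control and 6156, 5247 and 5213 in exposed. The sums therefore show less of the difference than the median does. Of the 12 markers, 11 were lower at an unadjusted p under 0.05 in edgeR's test. Over all 6 libraries 0 of them passed after adjustment in edgeR (smallest adjusted p 0.0906), 11 were called lower by DESeq2, and 11 were called lower by edgeR in replicates 1 and 2. Endothelial markers summed to 495 to 557 CPM in control and 426 to 479 CPM in exposed libraries, without overlap, and 7 of 8 had a negative log2 fold change. Red blood cell markers summed to 7061 to 17246 CPM and 3192 to 10227 CPM, with a median log2 fold change of -0.98 over 11 genes, of which DESeq2 called 1 lower. Of the Sertoli and fetal Leydig cell markers, 10 of 11 had a negative value, with a median of -0.76 and 4 at an unadjusted p under 0.05. Of the 10 ovarian supporting cell markers, 7 had a positive value, with a median of 0.12. In edgeR's test 3 of these 10, Lgr5 among them, were higher at an unadjusted p under 0.05 and 0 were lower. Of all tested genes, 3% were higher and 3.21% lower at that level. The part of these markers in the values of the WNT genes was not tested. Results are given for all 6 libraries and, beside them, for replicates 1 and 2 of each group.

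The main comparison asked whether exposure of the dam to APAP + IBU altered the level of the WNT genes in fetal ovaries. With all 6 libraries, the quasi-likelihood test of edgeR called 0 of the 10 genes, against a background of 0% of the 20167 tested genes. Fold changes are given on the log2 scale, APAP + IBU over control, with their standard error (SE), and p-values of this test were adjusted over all tested genes by the Benjamini-Hochberg method, with 0.05 as the threshold for a call. At an unadjusted p under 0.05, Lgr5 and Znrf3 were higher in exposed ovaries and no member was lower, beside 6.22% of all tested genes in either direction, 3% higher and 3.21% lower. DESeq2 called 0 members too, against 0.849% of the genes it tested, and had 2 members, Lgr5 and Znrf3, higher at an unadjusted p under 0.05, beside 5.85% of genes (2.73% higher and 3.12% lower). After the correction for the length and the G and C content of genes described later, edgeR again called 0 members, and 3 of them, Lgr5, Znrf3 and Rspo1, were higher at an unadjusted p under 0.05, beside 9.48% of all tested genes (3.94% higher and 5.53% lower). For all 10 genes the CPM of the control and exposed libraries overlapped, whereas 10.7% of all tested genes had groups that did not overlap.

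**Figure D1:**
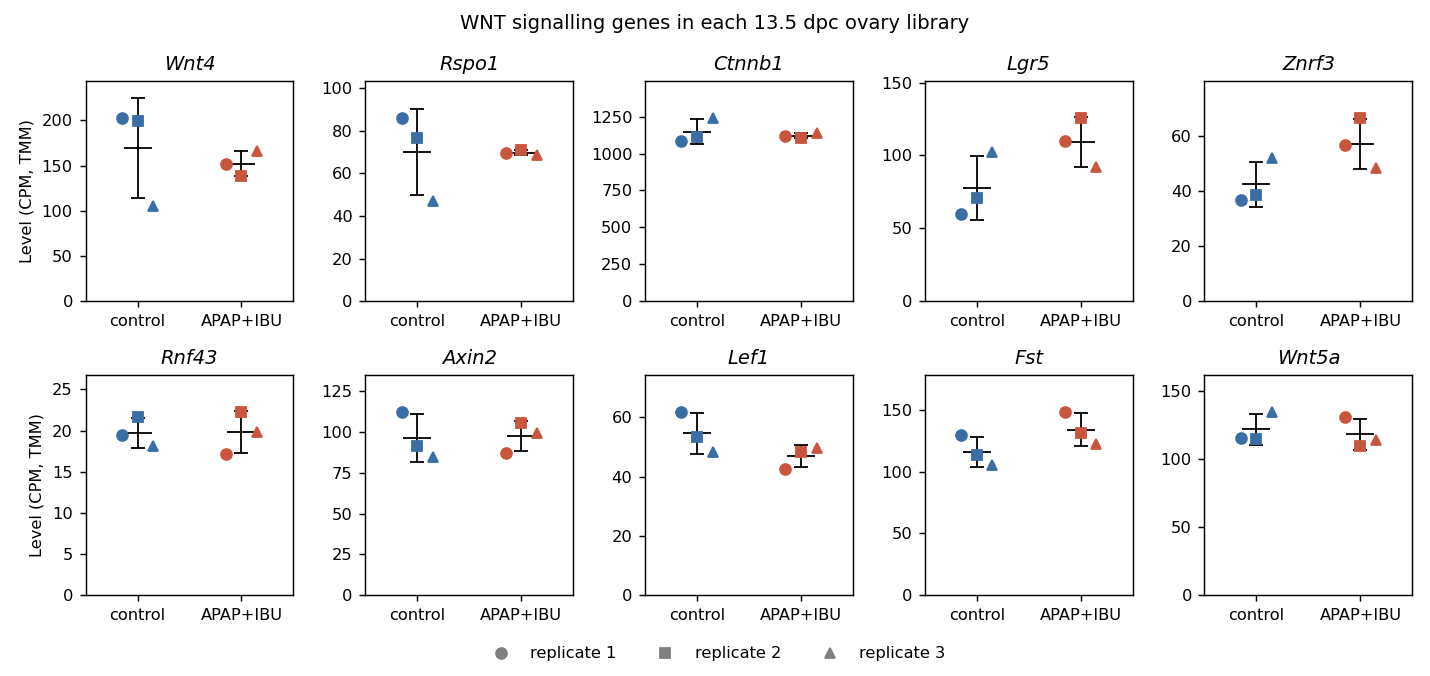
Level of each of the 10 WNT genes in every library, in CPM with TMM normalisation on a linear axis from 0. Points are libraries, with the replicate number given by the shape of the point, and bars are the mean and SD of 3 libraries. In Wnt4 and Rspo1 control replicate 3 is the lowest library, and in Lgr5 and Znrf3 it is the highest control.

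Wnt4 (ENSMUSG00000036856), on chromosome 4 of GRCm38 from 137277489 to 137299726, had 203, 200 and 106 CPM in control replicates 1, 2 and 3 and 152, 138 and 166 CPM in APAP + IBU replicates 1, 2 and 3. Control replicates 1 and 2 were above every exposed library, and control replicate 3 was below every one. The control mean was 169 ± 55.4 CPM and the exposed mean 152 ± 14.01 CPM (SD, n = 3 each). Over the 6 libraries the log2 fold change was -0.16 (SE 0.24, 95% interval -0.71 to 0.40, adjusted p = 0.829), and the exact permutation test (two-sided, of log2 CPM) had p = 0.8, with 0.1 as the smallest p that 3 against 3 allow. The difference was therefore well within the spread between libraries, and the interval still allows a change of moderate size in either direction.

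Without the replicate 3 libraries, Wnt4 was called lower, at 0.731 times the control level (log2 fold change -0.45, SE 0.094, adjusted p = 0.0151). Between the replicate 3 libraries it was higher in the exposed one by 0.66 on the log2 scale. After each library was corrected for the length and the G and C content of genes, the value in replicates 1 and 2 became -0.26 (adjusted p = 0.106), and over all 6 libraries it was -0.06. The lower level of Wnt4 was thus called in one of these 4 fits.

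Rspo1 (ENSMUSG00000028871), which encodes the R-spondin of the early ovary, lies on the same chromosome from 124986430 to 125009099. It had 86.1, 76.7 and 47.1 CPM in control and 69.5, 71.0 and 68.7 CPM in exposed libraries. The exposed libraries were nearly equal to each other, with an SD of 1.16 CPM against 20.3 CPM in the control group, and lay between control replicate 3 and the other controls. Across the 6 libraries the log2 fold change was -0.0043 (SE 0.21, 95% interval -0.49 to 0.48, adjusted p = 0.995).

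Rspo1 was not called in replicates 1 and 2 either, with a log2 fold change of -0.19 (adjusted p = 0.179). Its sign depended on the correction for length and G and C content, after which it was 0.26 over all 6 libraries (unadjusted p = 0.0454, adjusted p = 0.522) and 0.37 in replicates 1 and 2, where it was called higher (adjusted p = 0.0299). No direction can be given for Rspo1 from these libraries.

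Before any correction, the order of the libraries was alike for both ligands, with control replicates 1 and 2 highest and control replicate 3 lowest. With the correction for length and G and C content this was no longer so, at 7.48, 7.54 and 6.91 (corrected log2 CPM) in control and 7.34, 7.15 and 7.34 in exposed libraries for Wnt4 and 5.92, 6.01 and 5.996 against 6.37, 6.29 and 6.01 for Rspo1. The log2 ratio of Wnt4 to Rspo1 within a library, which no library scaling can change, was 1.24, 1.38 and 1.16 in control and 1.13, 0.962 and 1.27 in exposed libraries. The groups overlapped, and the mean differed by -0.14 (exact two-sided permutation p = 0.4, 0.6 after Benjamini-Hochberg adjustment over 3 ratios), by -0.28 with the correction and by -0.26 in replicates 1 and 2. After centring each gene on its mean over the 6 libraries, Rspo1 differed from Wnt4 by a root mean square of 0.131 on the log2 scale, the least among the members, where the median over 12463 genes with a mean of at least 5 CPM was 0.355.

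The genes most like Wnt4 by this measure over the 6 libraries were Asl (0.035), Tor2a (0.036) and Pard6a (0.048), and those most like Rspo1 were Klhdc8b (0.039), Kctd17 (0.044) and Gas6 (0.047). Asl, an enzyme of the urea cycle, had 38.2, 38.1 and 20.8 CPM in control and 27.8, 26.3 and 32.3 CPM in exposed libraries, the same order of high and low controls as Wnt4. All 6 of these genes have a G and C content of their longest transcript between 55.4% and 61.2%, above the median of 49.4% over tested genes. Likeness over 6 libraries is a description only, since the values of all genes come from the same 6 libraries.

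Gene levels moved with that composition between libraries, and also between the groups. The median log2 fold change over all 6 libraries was 0.17 in the quartile with the lowest content and -0.14 in that with the highest. In replicates 1 and 2 these medians were 0.39 and -0.33. The correction also takes out a group difference that follows length or G and C content. Such a difference and one between single libraries cannot be told apart. Wnt4, at 55.9% G and C, and Rspo1, at 59.7%, both belonged to the quartile of tested genes with the highest content (54.1% or more). Rnf43 (56.1%) and Axin2 (54.6%) belonged to it too. The median gene of that quartile deviated from its own mean over the 6 libraries by 0.29, 0.15 and -0.27 (log2) in control replicates 1, 2 and 3 and by -0.15, -0.077 and 0.058 in exposed replicates 1, 2 and 3. Wnt4 deviated by 0.37, 0.35 and -0.57 in control and -0.047, -0.18 and 0.083 in exposed libraries. Each had the same sign as that median. Rspo1 deviated by 0.32, 0.16 and -0.54 in control libraries, with the signs of that median. In exposed libraries it deviated by 0.016, 0.047 and -0.00072, each with the opposite sign. Rnf43 deviated by -0.019, 0.14 and -0.12 in control and -0.20, 0.18 and 0.016 in exposed libraries. Axin2 deviated by 0.23, -0.075 and -0.19 in control and -0.14, 0.13 and 0.048 in exposed libraries. Neither Rnf43 nor Axin2 had the sign of that median in every library.

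In the quartile with the lowest content (44.7% or less), the median gene went the other way, at -0.27, -0.15 and 0.16 in control and 0.19, 0.12 and -0.022 in exposed libraries. Lgr5, with 44.7% G and C just above that limit and exons that sum to 10264 bases, deviated by -0.60, -0.35 and 0.17 in control and by 0.28, 0.48 and 0.022 in exposed libraries. Lgr5 had the sign of that median gene except in exposed replicate 3. Znrf3, whose content of 50.7% is near the median of all tested genes, had that sign in every library. Its exons sum to 7893 bases, longer than in 85.9% of tested genes. Fst, which at 44.3% belongs to the quartile with the lowest content, deviated by 0.060, -0.14 and -0.24 in control libraries. In exposed libraries it deviated by 0.26, 0.080 and -0.023. In control replicates 1 and 3 its sign was opposite to that of the median gene. The quartile with the longest exons (5951.5 bases or more) holds Lgr5, Znrf3, Lef1, Wnt5a and Rnf43. Its median gene was at -0.20, -0.11 and 0.13 in control and 0.11, 0.11 and -0.016 in exposed libraries. Lef1 deviated by 0.30, 0.081 and -0.056 in control and -0.24, -0.059 and -0.022 in exposed libraries. Its sign was opposite except in exposed replicate 3. Wnt5a had the opposite sign in exposed replicate 2 only, and Rnf43 in several libraries.

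**Figure D2:**
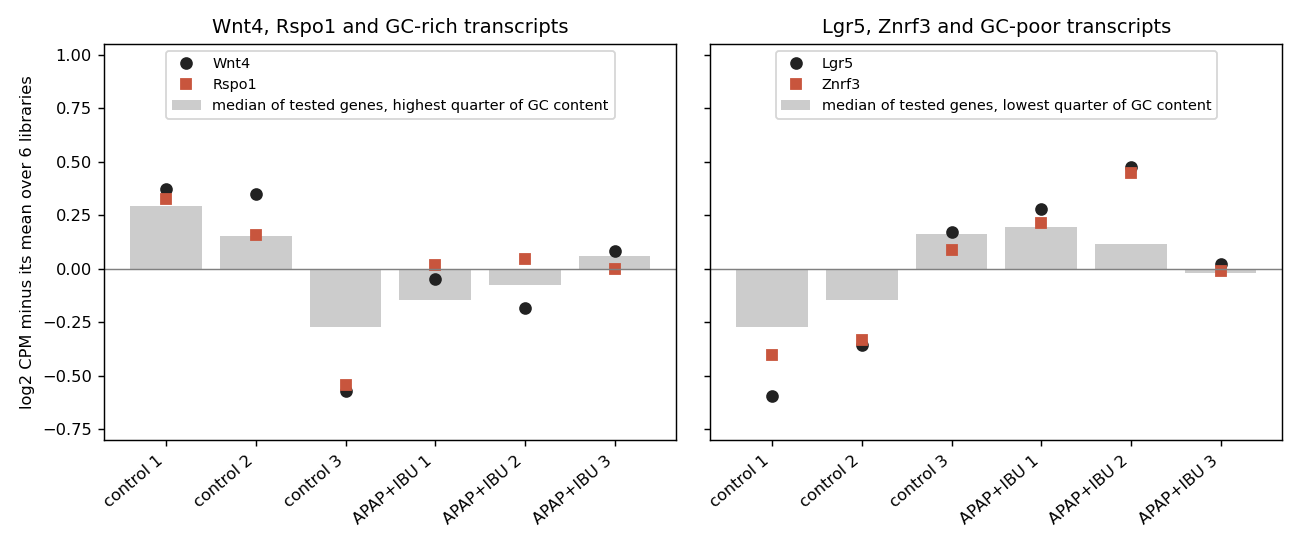
Log2 CPM of Wnt4 and Rspo1 (left) and of Lgr5 and Znrf3 (right) in each library, centred on the mean over the 6 libraries. Grey bars are the median of the tested genes in the quartile with the highest (left) or lowest (right) G and C content. Points of Wnt4 and Znrf3 lie on the same side of 0 as the bars in all 6 libraries. Rspo1 lies near 0 in the exposed libraries, on the side opposite to the bars.

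Lgr5 (ENSMUSG00000020140), which lies on chromosome 10 of GRCm38 from 115450311 to 115587780, had 59.9, 70.8 and 102 CPM in control and 110, 126 and 91.9 CPM in exposed libraries. Exposed replicates 1 and 2 were above every control, and exposed replicate 3 lay below control replicate 3. The control mean was 77.6 ± 21.9 CPM and the exposed mean 109 ± 16.99 CPM (SD, n = 3 each), a 1.41-fold higher value with a log2 fold change of 0.49 (SE 0.21, 95% interval 0.0019 to 0.99). Its unadjusted p was 0.0493 and its adjusted p 0.692, so it did not pass, and the exact two-sided permutation test gave p = 0.2.

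Lgr5 was called higher in replicates 1 and 2, 1.83-fold, with a log2 fold change of 0.87 (SE 0.12, adjusted p = 0.00632). It was also called without control replicate 3 alone (0.74, adjusted p = 0.0443). With the correction for length and G and C content, the value in replicates 1 and 2 was 0.45 and was still called (adjusted p = 0.0262). Over all 6 libraries it then became 0.32 (unadjusted p = 0.0197, adjusted p = 0.517). Only after this correction did the groups of Lgr5 separate, with corrected log2 CPM of 6.22, 6.32 and 6.49 in control and 6.60, 6.83 and 6.55 in exposed libraries (exact two-sided permutation p = 0.1, the smallest possible). Before the correction 10.7% of all tested genes had groups that did not overlap, and the share after it was not determined. The separation of Lgr5 is therefore a description only.

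Znrf3 (ENSMUSG00000041961), whose product lowers the Frizzled level at the cell surface, lies on chromosome 11 from 5276324 to 5444847. It had 36.8, 38.6 and 51.8 CPM in control and 56.5, 66.5 and 48.3 CPM in exposed libraries, the same order as Lgr5, with exposed replicate 3 below control replicate 3. The control mean was 42.4 ± 8.17 CPM and the exposed mean 57.1 ± 9.10 CPM (SD, n = 3 each). The 1.35-fold difference had a log2 value of 0.43 (SE 0.18, 95% interval 0.012 to 0.85, unadjusted p = 0.0451, adjusted p = 0.692).

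With replicates 1 and 2, Znrf3 was called 1.65-fold higher (log2 fold change 0.72, SE 0.11, adjusted p = 0.007), and it was called with the correction too (0.58, adjusted p = 0.0137). Its corrected value over all 6 libraries was 0.37 (unadjusted p = 0.0241, adjusted p = 0.522). Of the 10 genes, Lgr5 and Znrf3 were thus the ones with positive values of over 0.25 in all 4 of these fits, and neither passed the adjusted threshold in a fit with all 6 libraries.

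Rnf43 (ENSMUSG00000034177), the related ligase on the same chromosome from 87662722 to 87735539, did not share this pattern. Its levels were 19.4, 21.6 and 18.1 CPM in control and 17.2, 22.3 and 19.9 CPM in exposed libraries, fully interleaved. The log2 fold change was 0.0055 (SE 0.16, 95% interval -0.37 to 0.38, adjusted p = 0.992). As a log2 ratio within each library, Rnf43 to Znrf3 was -0.923, -0.836 and -1.52 in control and -1.72, -1.57 and -1.28 in exposed libraries. The mean ratio in exposed ovaries differed by -0.43, with overlapping groups (exact two-sided permutation p = 0.2, 0.6 after adjustment over 3 ratios). Its SD was 0.37 in control and 0.22 in exposed libraries. With 3 libraries per group this test could not resolve the difference.

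Ctnnb1 (ENSMUSG00000006932), on chromosome 9 from 120929216 to 120960507, was the steadiest of the 10 genes. It had 1087, 1115 and 1242 CPM in control and 1118, 1105 and 1137 CPM in exposed libraries, so its highest library was 1.14 times its lowest, a narrower range than in all but 2.22% of tested genes. The log2 fold change of -0.036 (SE 0.13, adjusted p = 0.931) had a 95% interval of -0.33 to 0.26. RNA levels of Ctnnb1 do not report the stability of β-catenin, which is where the pathway acts on it. Its exons share 759 bases with Ulk4 on the opposite strand, which had at most 704 reads in any library.

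Axin2 (ENSMUSG00000000142), a widely used readout of canonical WNT activity, is located on chromosome 11 from 108920349 to 108950783. Counts gave 113, 91.4 and 84.7 CPM in control and 87.2, 105 and 99.5 CPM in exposed libraries. Highest and lowest libraries both belonged to the control group, and the log2 fold change of 0.017 (SE 0.15, adjusted p = 0.970) had a 95% interval of -0.32 to 0.35. The log2 ratio of Axin2 to Ctnnb1 was -3.27, -3.61 and -3.87 in control and -3.68, -3.39 and -3.51 in exposed libraries, a mean difference of 0.057 with overlapping groups (exact two-sided permutation p = 0.9, also 0.9 after adjustment).

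Lef1 (ENSMUSG00000027985), one of the TCF/LEF factors and itself a target, lies on chromosome 3 from 131110471 to 131224356. It had 62.0, 53.3 and 48.4 CPM in control and 42.6, 48.3 and 49.6 CPM in exposed libraries, so that only exposed replicate 3 was above a control library. Its log2 fold change was -0.22 (SE 0.14, 95% interval -0.54 to 0.10, adjusted p = 0.698). In replicates 1 and 2 it was -0.32 (adjusted p = 0.0781), and with the correction for length and G and C content it was -0.65 and called lower (adjusted p = 0.0177). The corrected value over all 6 libraries was -0.38 (unadjusted p = 0.0732). Lef1 was thus the one member whose value moved further from 0 with the correction in both sets of libraries while keeping its sign.

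Fst (ENSMUSG00000021765), which needs Wnt4 and Rspo1 for its expression in the fetal ovary, is located on chromosome 13 from 114452290 to 114458951. Counts gave 130, 113 and 105 CPM in control and 149, 131 and 122 CPM in exposed libraries. Exposed replicate 3 lay below control replicate 1, and the other exposed libraries were above all controls. The 1.16-fold difference, a log2 value of 0.21 (SE 0.13, 95% interval -0.098 to 0.52, adjusted p = 0.698), did not pass, and after the correction it was 0.11 over all 6 libraries and 0.0036 in replicates 1 and 2.

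Wnt5a (ENSMUSG00000021994), on chromosome 14 from 28504750 to 28527448, had 115, 115 and 135 CPM in control and 130, 109 and 114 CPM in exposed libraries. The range of Wnt5a was the second narrowest of the 10 genes, at 1.23 times from lowest to highest. The log2 fold change was -0.044 (SE 0.13, 95% interval -0.34 to 0.25, adjusted p = 0.913). With the correction it was -0.16 (unadjusted p = 0.127), and the corrected levels of the exposed libraries, 6.92, 6.68 and 6.85 on the log2 CPM scale, all lay under those of the controls, 7.05, 6.95 and 6.93 (exact two-sided permutation p = 0.1, the smallest possible). The share of all tested genes whose groups separate after the correction was not determined, so this separation is a description only.

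**Figure D3:**
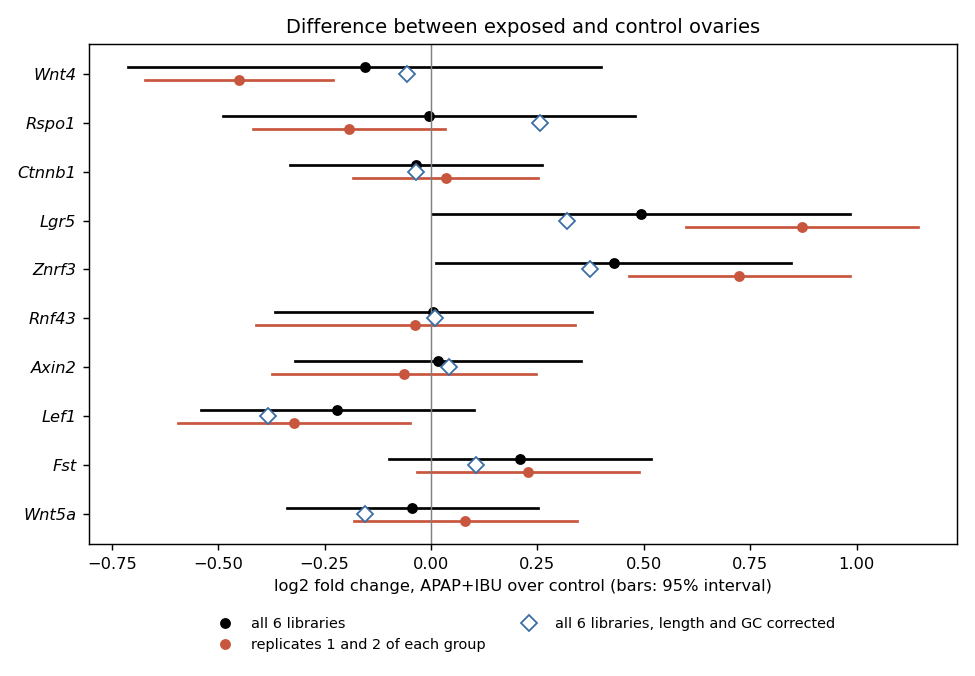
Log2 fold change of each of the 10 WNT genes, APAP + IBU over control. Black points with 95% intervals are all 6 libraries, red points with 95% intervals are replicates 1 and 2 of each group, and open diamonds, drawn without intervals, are all 6 libraries after the correction for length and G and C content. The intervals of Lgr5 and Znrf3 lie above 0 in both sets of libraries, and those of Wnt4 and Lef1 lie below 0 in replicates 1 and 2 only.

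Counted over replicates 1 and 2, 3 of the 10 genes were called, with Lgr5 and Znrf3 higher and Wnt4 lower. The background in that fit was 27.2% of 20633 tested genes, 14.2% higher and 12.9% lower, so 3 of 10 is near the share of all genes. With the correction, 4 of the 10 were called, with Lgr5, Znrf3 and Rspo1 higher and Lef1 lower, against 14.6% of all tested genes (5.98% higher and 8.61% lower). Only Lgr5 and Znrf3 were called in both fits. The median log2 fold change of the 10 genes over all 6 libraries was 0.00062, and that of all tested genes was -0.0047.

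The rest of the pathway was described from 9 lists by role, which hold 114 genes with the members, of which 110 passed the filter on low counts. Over all 6 libraries 0 of the 110 were called. At an unadjusted p under 0.05, 4 were higher and 4 lower, beside 3% and 3.21% of all tested genes. The median log2 fold change of the 110 was -0.019. Groups did not overlap for 9 of them, 3 higher (Dvl1, Dvl3 and Kremen1) and 6 lower (Rspo3, Fzd1, Fzd7, Dkk2, Tle3 and Ccnd1) in exposed ovaries, beside 4.78% and 5.92% of all tested genes. Fitted to replicates 1 and 2, 14 were called higher and 14 lower, beside 14.2% and 12.9% of all tested genes, and with the correction 10 and 8, beside 5.98% and 8.61%.

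Among WNT ligands and the genes for their secretion, 12 of 18 had a negative log2 fold change over all 6 libraries, with a median of -0.19, and none had an unadjusted p under 0.05. Wnt7b had the most negative value of those with at least 1 CPM on average, -1.19 (SE 0.57, adjusted p = 0.692), but at a low level of 1.44, 5.60 and 2.23 CPM in control and 0.986, 0.873 and 2.21 CPM in exposed libraries. Wls, the carrier that brings WNT proteins to the cell surface, had 131, 151 and 168 CPM in control and 177, 159 and 147 CPM in exposed libraries (log2 fold change 0.10, adjusted p = 0.804). In replicates 1 and 2, 5 ligands were called lower (Wnt2, Wnt4, Wnt5b, Wnt6 and Wnt11) of 18, where 12.9% of all tested genes were. With the correction 0 were called. At an unadjusted p under 0.05, 1 gene of the 18 was then higher and 5 lower, beside 2848 and 3644 of all 20633 tested genes.

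Among the 9 R-spondins, LGR receptors and ligases, Lgr5 and Znrf3 were the genes with an unadjusted p under 0.05. Both were higher, beside 3% of all tested genes. The R-spondin Rspo3 had 8.03, 7.44 and 8.43 CPM in control and 6.86, 4.28 and 7.16 CPM in exposed libraries, so that every exposed library was below every control (log2 fold change -0.39, adjusted p = 0.698). In replicates 1 and 2, 3 genes of this list were called higher and 0 lower, beside 14.2% and 12.9% of all tested genes. The receptor Lgr4, named here after its values were seen, was the third, with a log2 fold change of 0.50 (adjusted p = 0.00882), which the correction reduced to 0.30 (adjusted p = 0.0495).

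Of the 16 Frizzled receptors and co-receptors, none had an unadjusted p under 0.05 over all 6 libraries. Fzd2 had 70.3, 59.8 and 34.3 CPM in control and 38.3, 37.4 and 47.3 CPM in exposed libraries, with control replicate 3 the lowest of all. Its log2 fold change was -0.42 (adjusted p = 0.693), and in replicates 1 and 2 it was called lower (-0.76, adjusted p = 0.00678, with the correction -0.50, adjusted p = 0.0166). Lrp6, the co-receptor, had 0.08 over all 6 libraries and was called higher in replicates 1 and 2 (0.33, adjusted p = 0.0362), where the correction turned its sign (-0.15, adjusted p = 0.243). Fzd8 had the most positive value of the receptors over all 6 libraries, 0.14.

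Secreted and membrane inhibitors gave 2 of 17 genes with an unadjusted p under 0.05, both lower, beside 3.21% of all tested genes. Dkk2, which blocks LRP co-receptors, had 7.95, 12.6 and 7.74 CPM in control and 6.96, 6.33 and 3.70 CPM in exposed libraries, with no overlap between the groups (log2 fold change -0.73, unadjusted p = 0.0427, adjusted p = 0.692). Sfrp2, which binds WNT ligands outside the cell, had 48.1, 40.3 and 24.97 CPM in control and 22.2, 24.8 and 25.8 CPM in exposed libraries (-0.64, unadjusted p = 0.0256, adjusted p = 0.692). Control replicate 3 of Sfrp2 was at the level of the exposed libraries. Kremen1, a partner of DKK proteins, was higher in every exposed library, by 0.18 (adjusted p = 0.699).

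Cytoplasmic mediators and the destruction complex had 12 of 16 genes with a positive value over all 6 libraries and a median of 0.044. Dvl3, which relays the signal from Frizzled, had 25.02, 22.0 and 37.0 CPM in control and 41.1, 45.4 and 43.8 CPM in exposed libraries. Its exposed libraries were above every control, with a 1.55-fold higher mean (log2 fold change 0.63, SE 0.20, unadjusted p = 0.0138, adjusted p = 0.692), and the value was 0.62 after the correction. Its relative Dvl2 had -0.10 (adjusted p = 0.887).

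Apc, a scaffold of the destruction complex, had 83.3, 106 and 174 CPM in control and 184, 177 and 153 CPM in exposed libraries. With all 6 libraries its log2 fold change was 0.50 (adjusted p = 0.692), and in replicates 1 and 2 it was 0.95 (adjusted p = 0.00632), and with the correction 0.37 (adjusted p = 0.0309). In this list of 16, 6 genes were called higher and 0 lower in replicates 1 and 2, beside 14.2% and 12.9% of all tested genes. With the correction 5 were called higher and 1 lower, Btrc, beside 5.98% and 8.61%.

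Nuclear factors and cofactors gave 1 gene of 13 on each side at an unadjusted p under 0.05, both of them Groucho-related corepressors. Of all tested genes, 3% were higher and 3.21% lower at that level. Tle2 had 51.0, 54.9 and 43.6 CPM in control and 79.8, 75.7 and 54.6 CPM in exposed libraries (log2 fold change 0.49, unadjusted p = 0.0219), and Tle3 had 86.8, 78.5 and 62.4 CPM against 58.3, 62.3 and 59.2 CPM (-0.34, unadjusted p = 0.0459). Both had an adjusted p of 0.692, and both were called in replicates 1 and 2 with and without the correction, in opposite directions. Ctnnbip1, which keeps β-catenin from TCF factors, was called lower in replicates 1 and 2 (-0.49, adjusted p = 0.0147) and not with the correction (-0.21, adjusted p = 0.146).

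Feedback and target genes of canonical WNT, 15 in all with Axin2, Lef1, Lgr5 and Znrf3 among them, had 7 positive and 8 negative values and a median of -0.092. Ccnd1, which encodes cyclin D1, had 120, 109 and 95.1 CPM in control and 84.7, 78.1 and 88.1 CPM in exposed libraries, without overlap (log2 fold change -0.37, SE 0.13, unadjusted p = 0.0204, adjusted p = 0.692). Its value in replicates 1 and 2 was -0.47 (adjusted p = 0.0154) and barely moved with the correction (-0.46, adjusted p = 0.0194). Targets thus did not share a direction, with Lgr5 and Znrf3 on one side and Ccnd1 on the other at the unadjusted level.

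Planar polarity and non-canonical genes, the branch to which Wnt5a belongs, held none of 15 with an unadjusted p under 0.05 over all 6 libraries. The values for Celsr3 (0.56) and the receptor Ror2 (-0.34) were the most positive and most negative, with adjusted p of 0.692 and 0.699. In replicates 1 and 2 this list had 2 genes called higher, Daam1 (0.60, adjusted p = 0.00842) and Daam2, and 3 lower, Ptk7 (-0.41, adjusted p = 0.022), Ror2 and Wnt11, of 15, beside 14.2% and 12.9% of all tested genes. With the correction 0 were called. At an unadjusted p under 0.05, 2 genes of the 15 were then higher and 4 lower, beside 2848 and 3644 of all 20633 tested genes.

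The 9 ovarian genes that need Wnt4, Rspo1 or Ctnnb1 had 4 positive and 5 negative values over all 6 libraries, a median of -0.017 and no gene with an unadjusted p under 0.05. Fst was the most positive, and Sp5, a transcription factor that responds to WNT, the most negative at -0.33 (adjusted p = 0.738). Sp5 had 19.99, 13.6 and 8.48 CPM in control and 9.46, 11.9 and 12.2 CPM in exposed libraries. With the correction its value was -0.029, and the median of the list became 0.054, so no direction can be given for these genes.

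**Figure D4:**
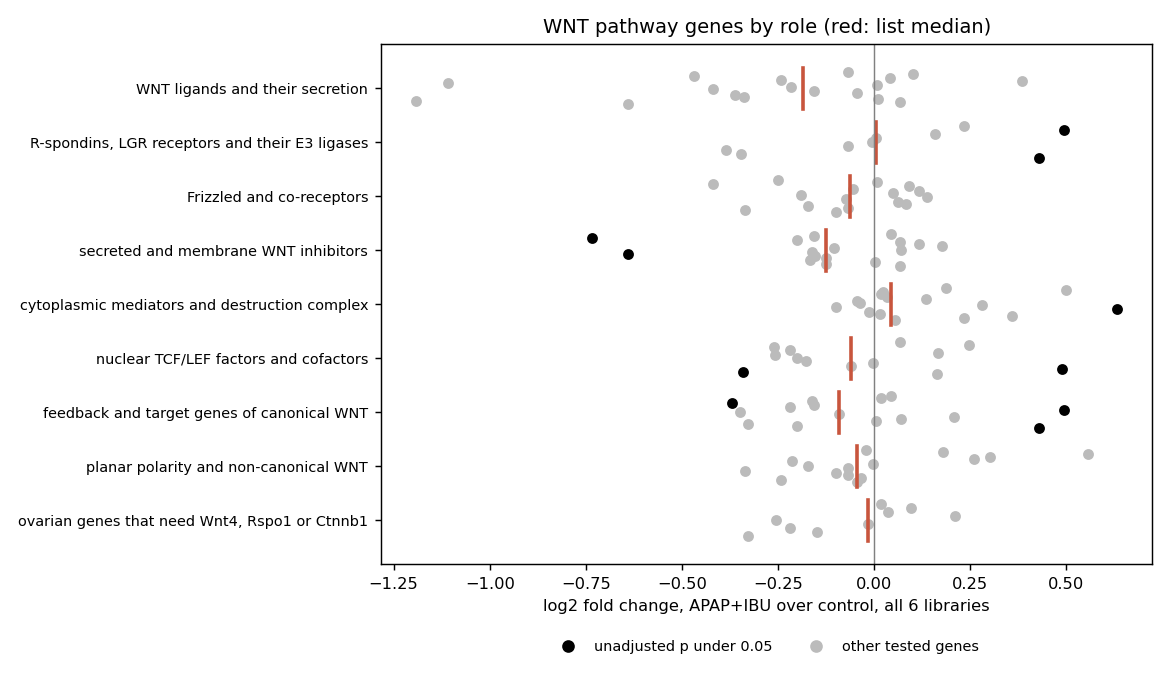
Log2 fold change over all 6 libraries, APAP + IBU over control, of each tested gene of the 9 WNT lists. Each point is a gene, black at an unadjusted p under 0.05 and grey otherwise, genes in several lists appear in each, and the red line is the median of the list. Medians run from -0.19 in the ligands to 0.044 in the cytoplasmic mediators, and no gene passes the adjusted threshold.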

How the data were processed

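The authors made stranded polyadenylated libraries from 300 ng of RNA with 12 PCR cycles, mapped reads to mm10 with TopHat2 2.0.14, counted them on Ensembl genes with HTSeq 0.6.1 and deposited raw counts. The strand setting of the counting is not given in the sources used here, so overlapping antisense genes may share reads. Of 4 pools per group, 3 were sequenced. The deposited counts of 48709 genes in 3 control and 3 exposed libraries were fitted with edgeR 4.0.16 (R 4.3.3), TMM normalisation, its expression filter and the quasi-likelihood test, adjusted by the Benjamini-Hochberg method. DESeq2 1.42.0 without shrinkage was an alternative. Levels are CPM with TMM. Log2 CPM used a prior count of 1. Names, positions, exon lengths and G and C content came from GENCODE M21 on GRCm38, a later annotation than the authors', and 360 identifiers had no symbol. RPKM used the union of exons, and the G and C content of a gene was that of its longest transcript. Length and G and C content were corrected library by library with loess (span 0.3) over the 20103 tested genes with both values. Groups came from the exposure label and replicate numbers from the titles.

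The members and lists were chosen with earlier results of these data known, and so was the choice to show replicates 1 and 2 of each group. All 10 members are named. Of the other lists, genes are named that have the largest rise or fall over all 6 libraries (mean of at least 1 CPM) or the smallest adjusted p in each direction in replicates 1 and 2. Foxl2 and further genes named to account for a small count were named after their values were seen. Of the 245 symbols in all lists, 1 matched no identifier. Chi-square per degree of freedom between libraries of a group ran from 18.8 to 158, so none was a duplicate. Same-numbered pools hold different embryos, and the correlation of their deviations from the group means was -0.0695, -0.0151 and -0.044. These values gave no sign of pairing, but the high sums of liver markers described above fell in same-numbered libraries of both groups. Whether same-numbered pools shared an experiment was not tested. Alternatives were other normalisations, filters and tests, the replicate block, the correction, and leaving out libraries.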

Additional observations from a re-analysis of the deposited data

How the results depend on the processing

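With all 6 libraries 0 genes were called, and the number became 235 with DESeq2, 120 without the filter on low counts, 5607 with replicates 1 and 2, 3009 with those and the length and G and C correction, and 5748 with those and DESeq2. Leaving out one library at a time gave 0 to 1064 genes, the highest without control replicate 3, and 0 in the other 5 cases. Members called went from 0 to 3, 4 and 3 in the same 3 fits of replicates 1 and 2, and leaving out one library gave 0 to 1, the 1 being Lgr5 without control replicate 3. For the pathway lists the numbers were 28, 18 and 31, and 0 to 8 when leaving out one library. The first 2 of the 3 fits of replicates 1 and 2 called 27.2% and 14.6% of all tested genes. That share was not determined for the third, nor without control replicate 3. The choice to include the replicate 3 libraries thus moved these counts, and the cause was not tested.

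With the replicate number as a block, 2 genes were called, 29 with the block and the correction, and 0 members in both. With the block alone, 0 members had an unadjusted p under 0.05 in edgeR's test. Of all 20167 tested genes, 299 were higher and 382 lower at that level. Lgr5 had a log2 fold change of 0.52 and Znrf3 one of 0.44 in that fit (adjusted p = 0.913 for each). The block gave Rspo1 a log2 fold change of 0.040, and 0.25 with the correction.

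Members whose values lay near 0 changed sign. Rspo1 was 0.00044 with DESeq2, 9.0e-05 with DESeq2 size factors, 0.036 with total counts, 0.0090 without a filter, 0.26 with the correction, 0.37 with the correction in replicates 1 and 2, and -0.22 to 0.17 when leaving out one library. Rnf43 was -0.023 with upper quartile scaling, -0.0050 with at least 10 counts in every library, -0.037 in replicates 1 and 2 and -0.040 there with DESeq2. Axin2 was -0.0097 with upper quartile scaling and -0.063 and -0.067 in the same pair of fits, Ctnnb1 0.035 and 0.030, and Wnt5a 0.080 and 0.074. Leaving out one library gave -0.098 to 0.089 for Rnf43, -0.066 to 0.14 for Axin2, -0.074 to 0.025 for Ctnnb1 and -0.13 to 0.036 for Wnt5a. None of these values was called except Rspo1 in corrected replicates 1 and 2. The ratio of Axin2 to Ctnnb1 was -0.095 in replicates 1 and 2 and -0.088 to 0.21 when leaving out one library. The ratio of Rnf43 to Znrf3 was -0.77 in replicates 1 and 2. Wnt4, Lgr5, Znrf3, Lef1 and Fst kept their sign in every alternative run, but not their size. Wnt4 was -0.0060 without control replicate 1, -0.020 without control replicate 2, -0.40 without control replicate 3, -0.099 without APAP + IBU replicate 2 and -0.25 without APAP + IBU replicate 3. Lef1 was -0.12 without control replicate 1, and Fst was 0.12 without APAP + IBU replicate 1 and 0.0036 in corrected replicates 1 and 2. Leaving out one library gave 0.34 to 0.74 for Lgr5, 0.30 to 0.60 for Znrf3, -0.30 to -0.12 for Lef1 and 0.12 to 0.30 for Fst. The ratio of Wnt4 to Rspo1 was -0.28 with the correction, -0.26 in replicates 1 and 2 and -0.22 to -0.059 when leaving out one library. The interval of Wnt4 ran from -0.71 to 0.40 on the log2 scale over all 6 libraries and from -0.67 to -0.23 in replicates 1 and 2.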
